A study of Arabidopsis thaliana with 79 samples.

Results

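The comparison described here is the response of root companion cells to low oxygen, read from the messenger RNA on their ribosomes. It rests on 4 arrays of the promoter line pSUC2, chosen by organ and line from 79 arrays in 36 groups: 2 arrays from roots kept in air and 2 from roots after 2 h of hypoxia. All 22746 probe sets other than the 64 AFFX controls were tested. Both groups came from 7-day-old Arabidopsis thaliana seedlings of accession Col-0 carrying the transgene pSUC2:His6FLAG-RPL18B. In these plants a promoter of the sucrose transporter gene SUC2 drives a tagged ribosomal protein L18, and tagged ribosomes were pulled from the root extract with their RNA. Per the labels, hypoxia was made by replacing the air with argon, the controls stayed in air at the same light and temperature, and the treatment began when the light period ended. The values are log2 signals after RMA, a method that corrects background, scales arrays to one distribution and sums the probes of a probe set, so a difference of 1 is a 2-fold change.

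The comparison groups were the like responses of 7 other root promoter lines (pSCR, pSHR, pWOL, pGL2, pCO2, pPEP and pRPL11C, 29 arrays), of root p35S (5 arrays), whose promoter is active in most cell types, and of shoot pSUC2 (4 arrays). Each line has its own air and hypoxia arrays, so none of these responses shares an array with that of root pSUC2. The labels describe the replicates as independent biological experiments. Over all probe sets the 2 air arrays correlated at 0.989 and the 2 hypoxia arrays at 0.993. The gap between 3′ and 5′ control probe sets was compared between conditions. For actin it was 6.23 ± 0.09 (SD, n = 2) in air and 6.14 ± 0.17 under hypoxia, and for GAPDH 3.48 ± 0.27 and 3.82 ± 0.20. The RNA went through 2 rounds of cDNA synthesis, so this gap is not a measure of RNA integrity alone.

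Companion cells sit beside the sieve tubes of the phloem, keep these nearly empty cells alive and load sugar into them through proton-driven sucrose transporters, a process that spends much ATP. When oxygen runs short, respiration slows, and plant cells turn to glycolysis with fermentation to lactate and ethanol. The core transcriptional response is switched on by group VII ethylene response factors, which are degraded while oxygen is present, while many other messenger RNAs leave the ribosomes.

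The label was checked against phloem markers. The promoter's own gene, SUC2, was not analysed here because no named probe set stands for it, and 3 of 28 listed phloem and companion cell genes were measured. AT3G12730, a MYB-like transcription factor gene related to the phloem regulator APL, read 10.57 and 10.24 in the air arrays of root pSUC2 against a mean of 6.75 in the other 7 lines, a log2 difference in level of 3.66. SWEET11, a sucrose exporter gene, and OPS, a regulator of the early phloem, differed in level by −0.17 and −0.64 and were not called. A wider check used all probe sets. Of these 2.46% (560) were higher and 1.45% (330) lower in root pSUC2 in air than in the other 7 lines by limma, at an adjusted p under 0.05 and an absolute log2 difference of at least 1, the rule for all calls below. With 50 added to the linear values the split was 431 and 159. Among the 560, 372 (66.4%) were also higher in shoot pSUC2 than in 4 other shoot lines, against 5.57% of all probe sets. Of 280 probe sets higher in root pSultr2;2, the second phloem line, than in the same 7 lines, 230 (82.1%) were among the 560, where both comparisons share the arrays of those 7 lines.

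Markers of other cells were also present. EXPA7 and EXPA18, expansin genes of root hairs and the 2 measured of 8 root hair genes listed, averaged 8.64 and 8.40 in the air arrays, against 6.26 to 8.99 in the air arrays of the 7 lines. The 2 cortex genes averaged 6.37 and 6.32, against a range of 5.26 to 7.66, and the 3 measured genes of dividing cells averaged 7.57 and 7.40, against 5.89 to 8.52. The one measured photosynthesis gene, RCA, read 7.17 and 7.03. The listed genes of endodermis, non-hair epidermis and xylem had 0 measured members. Their part in the results below was not tested.

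Hypoxia raised 3.55% of the probe sets (808) and lowered 2.25% (511) in root pSUC2, and the rises were far larger than the falls. The rises came to a log2 difference of at least 2 for 257 probe sets, at least 3 for 106, at least 4 for 42 and at least 5 for 20. Falls reached 2 or more for 33 probe sets and 3 or more for 2. Of the called probe sets with 1 assigned gene, 423 were higher and 243 lower. The median difference over all probe sets was −0.03. With 50 added to the linear values the counts were 585 and 288.

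The 15 largest rises were led by genes of the core hypoxia response. AT5G10040, a gene of unknown function, read 4.52 and 4.29 in air and 12.19 and 12.20 under hypoxia, a rise of 7.79 ± 0.41 (SE, n = 2 and 2, adjusted p = 2.67e-20). AT4G10270, of the wound-responsive protein family, went from 5.37 and 5.28 to 12.96 and 13.13, a rise of 7.72 ± 0.33 (adjusted p = 3.28e-23). Both air values of AT5G10040 lay below the lower quartile of their arrays (4.84 and 4.86), where signal is near background, so the exact size of its rise and its place as the largest are not settled. With 50 added to the linear values AT5G10040 rose by 6.05, AT4G10270 by 6.56 and AT3G10040 by 6.09.

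AT3G10040 encodes the trihelix transcription factor HRA1, which in Arabidopsis binds the group VII factor RAP2.12 and dampens the response. Its air arrays read 5.06 and 5.52 and its hypoxia arrays 12.69 and 12.42, a rise of 7.26 ± 0.34. It was the only measured member of 13 listed genes of oxygen sensing. CML38, a calmodulin-like calcium sensor gene (AT1G76650), rose by 6.01 ± 0.38 from 5.47 and 5.95 to 11.58 and 11.86. WRKY22, a transcription factor gene of innate immunity (AT4G01250), rose by 5.35 ± 0.52 from 5.63 and 5.51 to 10.82 and 11.01. The named rises and falls were chosen among called genes whose arrays do not overlap, so the gap between their air and hypoxia arrays follows from that choice.

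The other 10 of these rises were AT1G19530 (6.67), the kelch repeat gene AT3G27220 (6.50), AT4G24110 (6.23), AT1G33055 (5.89), AT4G33560, also of the wound-responsive family (5.48), AT4G39675 (5.17), the rhodanese-like gene AT2G17850 (4.82), the haloacid dehalogenase-like gene AT5G44730 (4.56), the RING finger gene AT5G42200 (4.48) and AT3G23170 (4.44). Their standard errors lay between 0.24 and 0.49. These values are plotted per array.

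**Figure D1:**
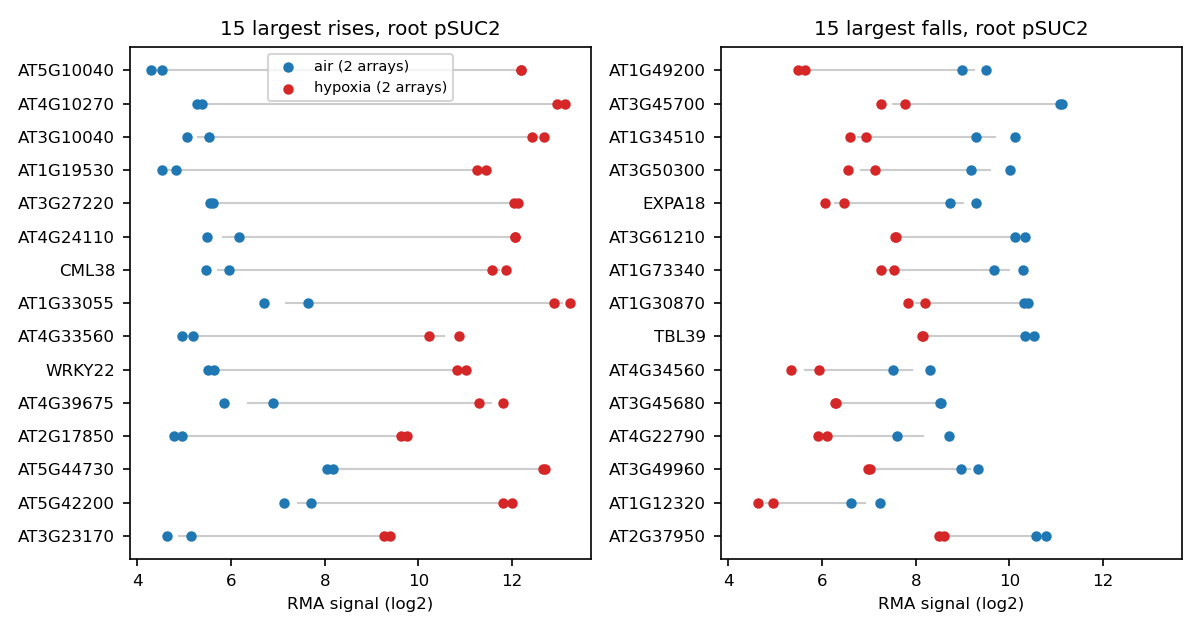
RMA signal (log2, horizontal axis) in each of the 4 root pSUC2 arrays for the 15 genes with the largest rises (left) and the 15 with the largest falls (right). Blue points are the 2 air arrays, red points the 2 hypoxia arrays, and grey lines join the means. The largest rise runs from 4.29 and 4.52 to 12.19 and 12.20, while the largest fall runs from 9.49 and 8.98 to 5.49 and 5.64.

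All 26 measured members of 49 listed hypoxia-induced genes rose, against 3.55% of all probe sets, with a median of 4.46 and a range of 1.22 to 7.79. The list was drawn from genes known to respond to hypoxia, partly from this very study, so its direction is not independent evidence. The smallest rises belonged to AT3G03270, the universal stress protein gene HRU1 (1.22), MCCA, a subunit gene of the leucine-degrading methylcrotonyl-CoA carboxylase (1.82), AT1G74940 (1.86) and AT4G27450 (2.04). AT3G03270 lost its call without control replicate 2 (1.10), hypoxia replicate 1 (1.25) or hypoxia replicate 2 (1.19), and MCCA without hypoxia replicate 2 (1.41).

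Fermentation was read from 2 of 8 listed genes, and both rose. PDC2 (AT5G54960), a pyruvate decarboxylase gene of the ethanol branch, read 10.05 and 10.30 in air and 12.62 and 12.74 under hypoxia, a rise of 2.50 ± 0.42 (adjusted p = 2.38e-05). The lactate dehydrogenase gene AT4G17260 rose by 3.11 ± 0.28 from 8.74 and 8.82 to 11.97 and 11.81. Both were already well expressed in air, and both also belong to the hypoxia-induced list.

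Upstream of them, 0 of 9 measured genes of sucrose breakdown and glycolysis, out of 37 listed, were called by limma, and 0 had an unadjusted p under 0.05. With 3.55% of all probe sets higher and 2.25% lower, a count of 0 among 9 genes is close to the background. Their differences lay between −0.31 and 0.34 with a median of −0.16. GAPC2, a cytosolic glyceraldehyde-3-phosphate dehydrogenase gene (AT1G13440), read 13.76 and 13.75 in air and 13.51 and 13.53 under hypoxia. TPI, a triose phosphate isomerase gene (AT3G55440), read 13.43 and 13.17 in air and 13.00 and 13.12 under hypoxia. PPDK, which links pyruvate and phosphoenolpyruvate, gave the highest difference of the list, 0.34 ± 0.29. The sucrose synthase genes were among those not measured here. Of 20 listed genes of phloem transport 1 was measured, the exporter gene SWEET11, at 8.15 and 8.08 in air and 7.96 and 8.44 under hypoxia.

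Most measured genes of heat shock proteins and their co-chaperones rose. Of 11 measured among 37 listed, 9 rose and 0 fell, against 3.55% and 2.25% of all probe sets, with a median of 1.71 against −0.03 over all probe sets. This list and those below were chosen with earlier results of these data known, so their counts are not independent evidence. AT1G52560, a small heat shock protein gene, went from 4.81 and 4.72 to 9.19 and 8.73, a rise of 4.19 ± 0.73 (limma, adjusted p = 3.83e-05). Both of its air values lay below the lower quartile of their arrays (4.84 and 4.86), so the exact size of this rise is not settled. The mitochondrial small heat shock protein gene AT5G51440 rose by 3.85 ± 0.69 and AT1G53540 by 3.80 ± 0.71, and Hop3, a co-chaperone gene between HSP70 and HSP90 (AT4G12400), rose by 1.71 ± 0.33. All 9 had both hypoxia arrays above both air arrays, which largely follows from their calls on these same arrays. Over all probe sets, called or not, 23.9% had this.

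The rest of the list was less firm. AT5G37670 rose by 2.78, the DnaJ gene AT2G20560 by 1.32 and Fes1A by 1.13, and each lost its call when any 1 of the 4 arrays was left out, at 2.43 to 3.13, 1.23 to 1.42 and, for Fes1A, 0.96 at the lowest. AT2G29500 (2.25) lost it without control replicate 1 (2.33), control replicate 2 (2.17) or hypoxia replicate 2 (1.75), and stood at 1.23 with 50 added to the linear values (adjusted p = 0.0915). The immunophilin gene AT5G48570 (1.67) lost its call without control replicate 1 (1.50) or hypoxia replicate 2 (1.38). ATHSP22.0 (1.14 ± 0.40) and the HSP70 gene AT3G09440 (−0.17 ± 0.51) were not called. Fitting root arrays only ended the calls of AT2G29500, AT5G37670 and Fes1A (adjusted p = 0.052, 0.1 and 0.082), and limma on the 4 root pSUC2 arrays alone called ATHSP22.0 (adjusted p = 0.00704). Against the mean of the other 7 root lines the response was larger for all 11 genes, by 0.26 to 2.64, yet limma called 0 of these differences and 3 had an unadjusted p under 0.05. Over all 22746 probe sets 0.0967% were called higher and 0.136% lower, and 1263 had an unadjusted p under 0.05. The 11 genes were read on the same arrays, so their shared direction is not 11 separate observations.

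**Figure D2:**
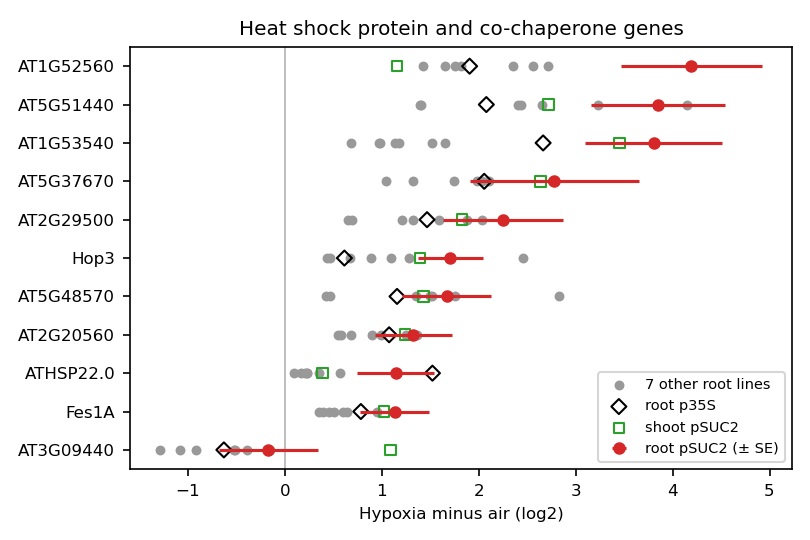
Hypoxia minus air (log2, horizontal axis) for the 11 measured heat shock protein and co-chaperone genes. Red points with bars are root pSUC2 ± SE, grey points the 7 other root lines, diamonds root p35S and squares shoot pSUC2. Root pSUC2 lies at 4.19 for AT1G52560 and at −0.17 for AT3G09440, and its bars differ in width among the small heat shock protein genes.

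In calcium and defence signalling 3 of 5 measured genes rose, where 3.55% of all probe sets did: CML38, WRKY22 and STZ, a zinc finger repressor gene of oxidative stress (AT1G27730), which went from 6.64 and 6.34 to 10.81 and 10.56, a rise of 4.19 ± 0.55. CML37 and AT1G76640, also calmodulin-like, differed by 0.55 and 0.85 and were not called. Against the same 3.55%, 3 of 7 genes with a WRKY symbol rose, namely WRKY22, WRKY53 by 4.07 ± 0.39 and WRKY6 by 1.15 ± 0.34. The low energy list had 2 rises among 5 measured genes, again over 3.55% of all probe sets, MCCA and IVD, an isovaleryl-CoA dehydrogenase gene that also serves leucine breakdown (1.99 ± 0.33). CML38 and MCCA also belong to the hypoxia-induced list, so they are counted again here. EIN3, the ethylene signalling factor and the 1 measured gene of 18 listed for ethylene, differed by −0.89 ± 0.26, with an adjusted p of 0.0146 but a size below the limit for a call.

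The 15 largest falls ranged over a RING finger gene, transporter genes, peroxidase genes and others. AT1G49200, a RING finger gene, read 9.49 and 8.98 in air and 5.49 and 5.64 under hypoxia and fell by 3.67 ± 0.41 (adjusted p = 2.67e-09). AT3G45700, a gene of the nitrate and peptide transporter family NPF, read 11.12 and 11.08 in air and 7.27 and 7.76 under hypoxia and fell by 3.58 ± 0.25 (adjusted p = 6.02e-16). Its neighbour in that family, AT3G45680, fell by 2.24 ± 0.32. The 2 air arrays of AT3G45700 were closer to each other than its 2 hypoxia arrays.

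Class III peroxidases, secreted enzymes that cross-link or loosen the wall, supplied AT1G34510, which fell by 2.93, AT1G30870, which fell by 2.33, and AT3G49960, which fell by 2.15. EXPA18, the root hair expansin gene (AT1G62980), read 9.29 and 8.72 in air and 6.07 and 6.48 under hypoxia, and fell by 2.74 ± 0.32. EXPA7 (AT1G12560) fell by 1.81 ± 0.25. Both root hair markers thus fell in a line labelled phloem, and the difference from the other 7 lines was −0.71 for EXPA18 and −0.28 for EXPA7, neither called.

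The remaining largest falls were those of the acyltransferase gene AT3G50300 (−2.76), the methyltransferase gene AT3G61210 (−2.66), the cytochrome P450 gene AT1G73340 (−2.59), TBL39 of the wall acetylation family (−2.29), AT4G34560 (−2.27), the MATE transporter gene AT4G22790 (−2.16), AT1G12320 (−2.13) and the zinc finger gene AT2G37950 (−2.11). Among 11 measured genes of cell wall growth 2 fell, XTH33, a xyloglucan-modifying enzyme gene, by 1.18 and the cellulase gene GH9C2 by 1.31, and 0 rose, against 2.25% and 3.55% of all probe sets. With 50 added to the linear values XTH33 stood at −0.65 and was no longer called. GH9C2 lost its call without any 1 of the 4 arrays, at −1.49 to −1.13, and with root arrays only (adjusted p = 0.063). EXPA4 and EXPA15 stood at −1.43 ± 0.57 and −1.11 ± 0.46, and COB, a gene of cellulose orientation, at −1.14, and were not called. Limma on the 4 root pSUC2 arrays alone called all 3 (adjusted p = 0.0181, 0.0166 and 0.0432). COB was also called after a second quantile normalization, with a minimum mean of 6 and without control replicate 2 (−1.54), and stood at −0.73 without control replicate 1. Of 18 genes with a cytochrome P450 symbol CYP71B37 fell by 1.60 and CYP71B28 by 1.28, against 2.25% of all probe sets. Prx37 (1.44) and AT5G64120 (1.42) were the 2 rises among 5 genes with a peroxidase symbol, where 3.55% of all probe sets rose. Peroxidase genes thus stood among both the rises and the falls.

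Part of the response was shared with the rest of the root. Of the 808 rises, 238 rose in all 9 other root populations with both conditions, counting total RNA and p35S, and 64 in none. The share of all probe sets that rose in these 9 was 1.98% in p35S, 2.13% in total RNA, 2.66% in pGL2, 3.19% in pRPL11C, 3.24% in pSHR, 3.38% in pSCR, 3.51% in pPEP, 3.55% in pWOL and 4.15% in pCO2. Of the 511 falls, 18 were found in all 9 and 75 in none. Root p35S shared 366 rises, which is 45.3% of those of pSUC2 and 81.3% of its own, and 98 falls, 19.2% and 50.3%. The response correlated over probe sets at 0.74 with root p35S and at 0.80 with pSHR, as a description over features measured on one array type.

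A call in pSUC2 alone does not show a difference between lines, so the difference itself was tested against the mean response of the other 7 root lines. It was higher in root pSUC2 for 0.0967% of probe sets (22) and lower for 0.136% (31). Among the 22, 20 were probe sets that rose in root pSUC2. The 31 were made up of 17 that fell, 7 that rose but less than in the other lines, and 7 that were not called in root pSUC2. Of the 64 rises and 75 falls seen in no other root population, 3 and 12 passed this test. The total of 53 was 25 without control replicate 1 and 18 without hypoxia replicate 1 of root pSUC2. Against root p35S, 14 of the 22 and 16 of the 31 were called as well, with the root pSUC2 arrays shared by both tests.

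The largest excess was that of AT5G64870, a flotillin-like gene of membrane microdomains. It read 4.76 and 4.94 in air and 8.98 and 9.14 under hypoxia, a rise of 4.21 ± 0.31, while the other 7 lines rose by 0.36 to 1.95 with a mean of 1.16. The difference of 3.05 ± 0.33 (adjusted p = 3.53e-08) was as large against root p35S, at 3.50 ± 0.42. WRKY53, a transcription factor gene of leaf senescence (AT4G23810), went from 5.72 and 5.59 to 10.02 and 9.43, against a mean rise of 1.57 in the 7 lines, a difference of 2.50 ± 0.42. AT5G07330 rose by 3.84 ± 0.54 against a mean of 0.93. In all 3 genes the root pSUC2 response lay above that of each of the 7 lines. They were chosen as the 3 largest positive differences, so this largely follows from that choice.

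Others with a larger response were AT2G32190 (a difference of 2.18), AT4G29780 (2.04), AT1G68500 (1.79), AT3G57450 (1.76), the EF-hand calcium-binding gene AT2G46600 (1.75), AT4G37295 (1.42) and AT3G50610 (1.37), a gene of the CEP signalling peptides. AT1G68500 and AT3G57450 rose by 1.72 and 1.55 in root pSUC2 while the mean of the 7 lines was −0.07 and −0.21. Over the 7 lines the response of AT3G57450 ran from −0.74 to 1.34.

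The negative side included genes whose level in air was already high in the phloem line. AT4G27450, an aluminium-induced-like gene of the core hypoxia list, read 11.14 and 11.48 in air, 2.70 above the mean level of the 7 lines, and 13.32 and 13.37 under hypoxia. It rose by 2.04 ± 0.24 against 3.73 to 5.49 in the 7 lines, a difference of −2.58 ± 0.25 (adjusted p = 4.62e-09). AT3G03270, HRU1, read 10.18 and 9.94 in air and 11.25 and 11.31 under hypoxia, with a level in air 2.38 above the lines and a difference in response of −1.75 ± 0.36. AT1G03610, with a level 2.15 above the lines in air, went from 9.72 and 9.54 to 11.20 and 11.47, while the lines rose by a mean of 3.66. The air arrays of root pSUC2 enter both the level and the response, so these 2 values are not independent. Added together, they give the distance from the lines under hypoxia. For AT4G27450 (2.70 and −2.58) and AT1G03610 (2.15 and −1.96) they nearly cancel. For these genes root pSUC2 thus ended near the mean hypoxia level of the lines, and for AT3G03270 (2.38 and −1.75) above it.

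Among genes that fell, AT1G49200 differed from the lines by −2.52 ± 0.44, AT3G61210 by −1.90 ± 0.26 and AT2G37950 by −1.88 ± 0.26. AT3G61210 read 10.33 and 10.11 in air, where the mean of the 7 lines was 6.07, and 7.56 and 7.57 under hypoxia. It was also called lower in pWOL (−1.28), pGL2 (−1.21), pRPL11C (−1.49) and root p35S (−1.18), but not in pSCR, pSHR, pCO2 or pPEP. Its lowest mean level in air among the 7 lines was 4.89, near background, where a fall can hardly be measured. AT2G37950 read 10.56 and 10.78 in air and 8.50 and 8.61 under hypoxia, while the lowest of the 7 lines was −0.66. The phloem marker AT3G12730 read 9.30 and 9.00 under hypoxia, fell by 1.26 ± 0.25 and differed from the lines by −1.20 (adjusted p = 0.0218). The 4 remaining named differences were scpl31, a serine carboxypeptidase-like gene (−1.80), AT3G59480, a sugar kinase gene of the pfkB family (−1.63), the MYB-like gene AT3G16350 (−1.54) and AT3G07310 (−1.37), whose own responses in root pSUC2 were −0.92, −0.87, −0.81 and 0.57 and were not called.

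**Figure D3:**
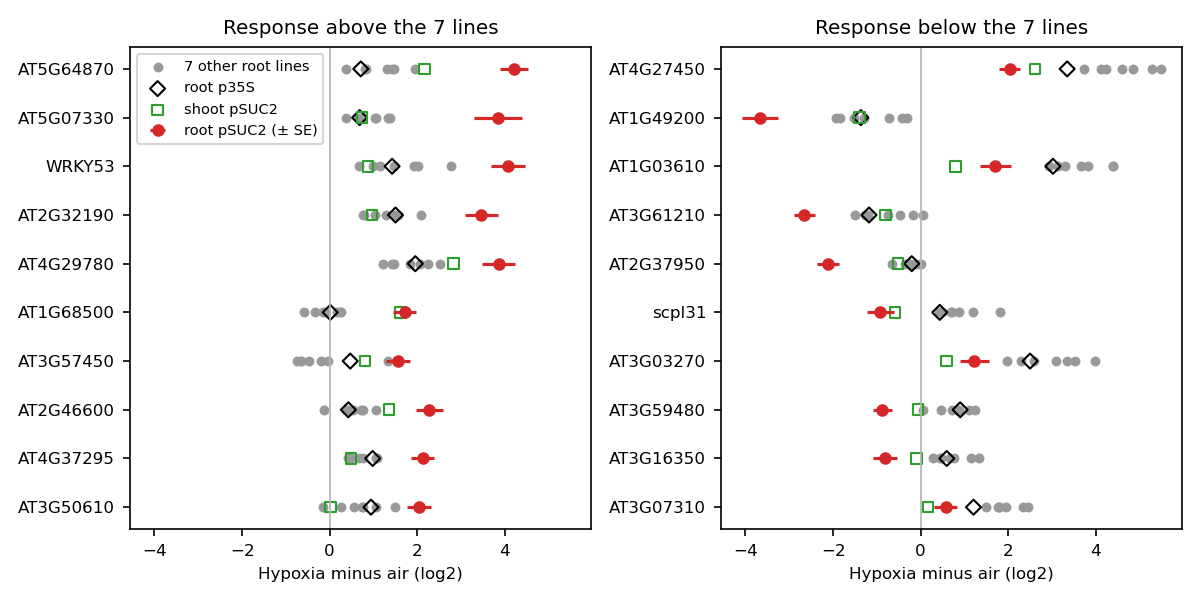
Hypoxia minus air (log2, horizontal axis) for the 10 genes whose root pSUC2 response lay furthest above (left) and below (right) the mean of the 7 other root lines. Red points with bars are root pSUC2 ± SE, grey points the 7 lines, diamonds root p35S and squares shoot pSUC2. AT5G64870 reaches 4.21 in root pSUC2 against at most 1.95 in the lines, and AT4G27450 stays at 2.04 against at least 3.73.

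These calls rested on few arrays. AT5G64870, AT3G57450, AT4G27450, AT3G61210, AT2G37950 and AT3G59480 were called with each of the 4 root pSUC2 arrays left out in turn. Without control replicate 1 the call was lost for AT1G03610 (−1.87), AT1G49200 (−2.26), AT2G32190 (2.07), AT2G46600 (1.69), AT3G03270 (−1.63), AT3G16350 (−1.60), AT3G50610 (1.53) and scpl31 (−1.19). Without control replicate 2 it was lost for AT3G07310 (−1.19), AT3G16350 (−1.48), AT3G50610 (1.22), AT4G29780 (1.81), AT4G37295 (1.31) and AT5G07330 (2.60). Without hypoxia replicate 1 it was lost for WRKY53 (2.21), AT1G68500 (1.42), AT5G07330 (2.77), AT4G29780 (2.00), AT2G46600 (1.63), AT4G37295 (1.13), AT3G50610 (1.26), AT1G03610 (−1.82), AT3G03270 (−1.72), scpl31 (−1.57), AT3G16350 (−1.60) and AT3G07310 (−1.09). Without hypoxia replicate 2 it was lost for AT3G03270 (−1.78), AT3G16350 (−1.48) and AT3G50610 (1.49). Fitting root arrays only ended the calls of AT5G07330 and AT3G50610 (adjusted p = 0.0524 and 0.0823).

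Transcripts enriched in phloem in air had a high share of falls. The set was taken from arrays that do not include root pSUC2, and was formed after the data had been seen, so the counts are a description. Of the 280 probe sets (1.23% of all) higher in root pSultr2;2 than in the 7 lines, 68 (24.3%) fell in root pSUC2 and 17 (6.07%) rose, against 2.25% and 3.55% of all probe sets. Their median difference was −0.50. Their median level was 10.12 and 10.05 in the air arrays and 9.86 and 9.73 in the hypoxia arrays, so the set stayed far above the array median of 6.48 to 6.53. All probe sets together include many near background, where a fall can hardly be measured. Their share is therefore not a like reference, here or for the sets below. Of the 57 enriched by at least 2, 16 (28.1%) fell. The 68 became 44 without hypoxia replicate 2.

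The same 280 probe sets had 18 falls (6.43%, against 0.857% of all) in root p35S, 12 (4.29%, against 1.24%) in root total RNA and 10 (3.57%, against 0.572%) in shoot pSUC2. Their medians there were −0.05, −0.02 and −0.01. In p35S and total RNA, phloem transcripts are mixed with those of other cells, so these shares are not like values. The pSultr2;2 line has no hypoxia arrays, so its own response was not measured, and the 7 lines are not set beside it because their air arrays define the set.

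The set taken from shoots gave a smaller shift. Of 1267 probe sets (5.57% of all) higher in shoot pSUC2 than in 4 other shoot lines, 97 (7.66%) fell and 77 (6.08%) rose in root pSUC2, against 2.25% and 3.55% of all probe sets. The median of the 1267 was −0.20. In the other 9 root populations 1.89% (total RNA) to 9.31% (pRPL11C) of them fell. The share of all probe sets that fell there was 0.857% in p35S, 1.24% in total RNA, 1.64% in pGL2, 1.95% in pSCR, 2.3% in pSHR, 2.51% in pWOL, 2.86% in pCO2, 2.91% in pPEP and 5.52% in pRPL11C. The test against the 7 lines called 18 of the 1267 (1.42%) on the negative side, against 0.136% of all probe sets, and 6 (0.474%) on the positive side, against 0.0967%, so 18 of the 31 negative differences belong to this set. In bulk RNA of a line, fewer tagged cells and less RNA per cell cannot be told apart, nor can less transcript and fewer ribosomes on it, since no total RNA of these cells was measured.

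**Figure D4:**
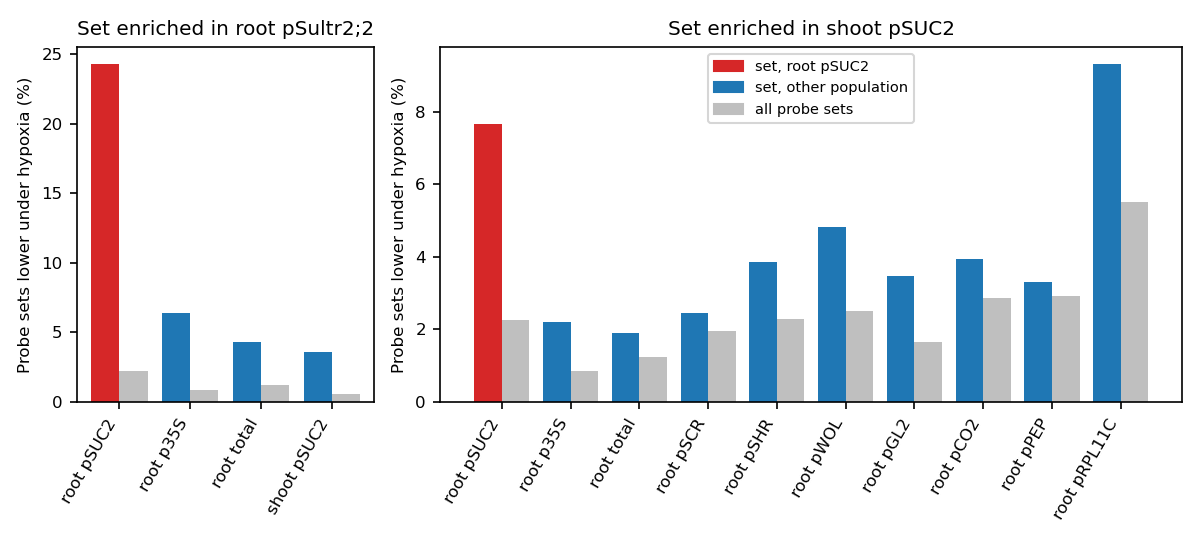
Share of probe sets lower under hypoxia (%, vertical axis, from 0) among 280 probe sets enriched in root pSultr2;2 (left) and 1267 enriched in shoot pSUC2 (right), per population. Red and blue bars are the set, in root pSUC2 and in the other populations, and grey bars all probe sets. The share in root pSUC2 is 24.3% on the left and 7.66% on the right, over 2.25% of all probe sets.

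Both sets had 181 probe sets in common, of which 43 (23.8%) fell and 8 rose, against 2.25% and 3.55% of all probe sets. The 12 with 1 gene and the highest enrichment in the shoot are named here. They include 3 glutaredoxin genes of the plant-specific CC class, small redox proteins: AT3G62930 went from 10.06 and 10.14 in air to 8.45 and 9.17 under hypoxia and fell by 1.29 ± 0.24, AT2G30540 fell by 1.29 ± 0.35 and ROXY2 fell by 1.07 ± 0.29. These falls were not particular to root pSUC2. AT3G62930 and AT2G30540 were also called lower in root pGL2 (−1.35 and −1.59), and ROXY2 in root pWOL (−1.18) and pCO2 (−1.21). For none of the 3 was the difference from the 7 lines called. AT3G61210, AT3G12730 and AT5G59080 also fell, the last by 1.26 ± 0.34 although its 2 hypoxia arrays, 7.31 and 8.54, lay far apart. The other 6 were not called: AT4G00780 (−1.02), AT4G14020 (−0.61), AT5G04080 (−0.35), AT5G54660 (−0.25), AT5G50890 (−0.20) and the EF-hand gene AT1G73630 (0.08). The last read 11.40 and 11.23 in air and 11.42 and 11.37 under hypoxia, so these 12 genes did not move as one.

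Root p35S gave a second reference within the organ. The root pSUC2 response was higher for 0.185% of probe sets (42) and lower for 0.119% (27). AT1G33050, of unknown function, read 8.36 and 7.82 in air and a mean of 12.04 under hypoxia, a rise of 3.94 ± 0.36, against −0.19 in root p35S, and the difference of 4.13 ± 0.48 had an adjusted p of 8.26e-07. Its responses in the 7 lines ran from −0.13 to 4.33 with a mean of 2.54. The leucine-rich repeat extensin gene AT2G15880 (3.24) and AT4G30380, expansin-like (2.68), were likewise above p35S while the mean of the 7 lines was 3.29 and 2.99 for them. Below p35S stood AT1G73340 (−2.55), AT1G49200 (−2.31), AT3G45700 (−2.16), AT2G37950 (−1.91) and AT3G59480 (−1.78).

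The total of 69 depended on single arrays. It was 19 without control replicate 1 and 22 without hypoxia replicate 1 of root pSUC2, and 34 without hypoxia replicate 1 and 115 without hypoxia replicate 3 of root p35S. With each of the 9 arrays left out in turn, AT1G49200 lost its call against p35S in 8 cases (−2.56 to −1.64), AT5G07330 in 7 (at most 3.48) and AT2G15880 in 6 (2.61 to 3.52). The call was also lost for AT3G59480 without control replicate 1 (−1.38) and for AT4G30380 without hypoxia replicate 1 (2.27) of root pSUC2. Fitting root arrays only ended the calls of AT2G15880, AT5G07330 and AT1G49200 (adjusted p = 0.101, 0.133 and 0.0632), and a second quantile normalization that of AT1G49200 (0.0555).

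The same promoter line in the shoot shared part of these changes. Shoot pSUC2, where 2.18% of probe sets rose and 0.572% fell, shared 237 of the 808 rises (29.3%, and 47.7% of its own 497) and 29 of the 511 falls (5.68%, and 22.3% of its own 130). The correlation of the 2 responses over probe sets was 0.52. The test of root minus shoot called 1.12% of probe sets (254) higher in the root response and 0.994% (226) lower. That total of 480 was 292 without control replicate 1, 264 without hypoxia replicate 1 and 307 without hypoxia replicate 2 of root pSUC2, and 247 without control replicate 2 and 271 without hypoxia replicate 1 of shoot pSUC2.

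Of the 26 measured hypoxia-induced genes, all called in the root line, 23 rose in the shoot line too, where 2.18% of all probe sets did, and AT3G03270, AT3G10020 and MCCA were not called there. In the direct comparison 23 of the 26 had the larger response in the root, and 4 passed the test. Over all probe sets 1.12% passed it on the higher side and 0.994% on the lower, and the median difference was 0.0007. The list was drawn partly from this study, so this lean is not independent evidence. AT1G19530 rose by 6.67 in the root and 3.52 in the shoot line (difference 3.15 ± 0.49, adjusted p = 3.5e-05), AT5G44730 by 4.56 and 2.07, and CML38 by 6.01 and 3.72. AT4G10270 rose by 7.72 and 7.45, a difference of 0.27 ± 0.47 that was not called. WRKY22 rose by 5.35 in the root line and 2.26 in the shoot line, a difference of 3.08 ± 0.73.

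Several root responses were close to 0 in the shoot. The peroxidase gene AT5G39580 read 5.23 and 5.34 in air and 8.62 and 8.98 under hypoxia in the root line and rose by 3.51, against −0.02 in the shoot line. GAT1_2.1, a glutamine amidotransferase-like gene, rose by 3.97 against 0.54, a difference of 3.43 whose call was lost without hypoxia replicate 2 of root pSUC2 (3.05) or hypoxia replicate 1 of shoot pSUC2 (2.95). AT3G48450, of the RIN4-like NOI family, rose by 3.06 against −0.37, AT1G33050 by 3.94 against 0.03 and AT4G30380 by 3.94 against 0.33. The falls of AT3G45700, AT1G34510, AT3G50300 and AT1G73340 met values of −0.42, −0.09, −0.01 and −0.12 in the shoot line, differences of −3.16, −2.85, −2.75 and −2.46, and AT1G34510 lost its call without control replicate 1 of root pSUC2 (−2.43). M17, a late embryogenesis abundant protein gene, ran the other way, at 3.67 and 3.64 in air and 3.94 and 3.85 under hypoxia in the root line against a rise of 3.21 in the shoot line. These root values all lay below the lower quartile of their arrays (4.84 to 4.87), near background.

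**Figure D5:**
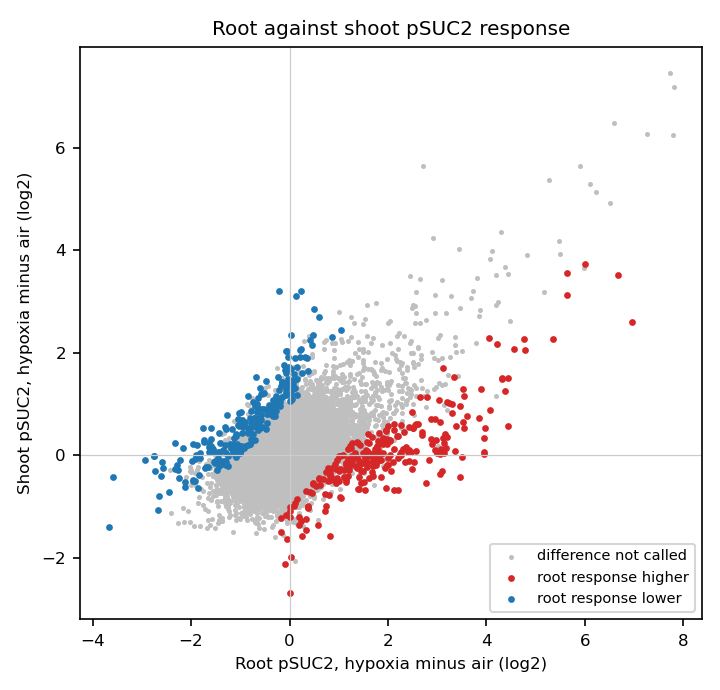
Hypoxia minus air in root pSUC2 (log2, horizontal axis) against the same in shoot pSUC2 (log2, vertical axis), with 1 point for each of 22746 probe sets. Red points are the 254 probe sets whose root response was higher by the test of the difference, blue points the 226 whose root response was lower. AT5G10040 lies at 7.79 in the root and 6.25 in the shoot, and AT3G45700 lies at −3.58 in the root and −0.42 in the shoot.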

How the data were processed

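The authors deposited 1 log2 signal per probe set and array, made with RMA in the R package affy per the submitters' processing notes, which give no version. The sources used here do not say whether RMA ran on all arrays at once. Per the labels' protocols, 15 to 100 ng of RNA went through 2 rounds of cDNA synthesis. One limma model (limma 3.58.1, R 4.3.3) estimated 1 mean for each of the 36 groups from all 79 arrays and 22746 probe sets, with 43 residual degrees of freedom, so groups of 2 share a pooled spread. P-values were adjusted by Benjamini-Hochberg over all probe sets of a contrast, and a call needed an adjusted p under 0.05 and an absolute log2 difference of at least 1. No filter on low values was applied. The number of arrays limits the precision.

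The platform annotation and RefSeq names gave 1 gene to 13513 probe sets, several to 503 and none to 8730. A gene stands by its probe set with the highest mean. Named genes are the 15 largest called rises and falls with 1 gene and arrays that do not overlap, the 10 largest of each sign against the 7 lines, the 5 largest of each sign against p35S and shoot pSUC2, and measured members of the lists. The members and lists were chosen with earlier results of these data known. The phloem-enriched sets, and the 12 genes named from them, were added after the data were seen.

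Tested on simulated data of 22746 probe sets, the model recovered 92% of changes of 1.5 in the root pSUC2 response, 89% in the difference from the 7 lines, 69% in that from p35S and 68% in that from shoot pSUC2, and 98% to 99% of changes of 3, with 4 to 11 false calls per contrast. The simulation drew independent normal noise and changed 100 probe sets of each size in root pSUC2 alone. All else had hypoxia equal to air, so these values are not the error rates of the calls above. The correlation of the deviations of same-numbered air and hypoxia arrays was 0.17, and with 2 pairs it does not show that the numbers pair the samples. Alternatives were a replicate block, fewer arrays, a second quantile normalization, 50 added to linear values, a minimum mean of 6, other thresholds, and each array or line left out.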

Additional observations from a re-analysis of the deposited data

Results flagged for a closer look

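The responses differed between populations by a direct test in 3 comparisons, with 53 probe sets called against the other 7 root lines, 69 against root p35S and 480 against shoot pSUC2. The values below are log2 differences between the root pSUC2 response and the other response, from limma.

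Against the 7 lines the response was larger for AT5G64870 (3.05), AT5G07330 (2.91), WRKY53 (2.50), AT2G32190 (2.18), AT4G29780 (2.04), AT1G68500 (1.79), AT3G57450 (1.76), AT2G46600 (1.75), AT4G37295 (1.42) and AT3G50610 (1.37). It was lower for AT4G27450 (−2.58), AT1G49200 (−2.52), AT1G03610 (−1.96), AT3G61210 (−1.90), AT2G37950 (−1.88), scpl31 (−1.80), AT3G03270 (−1.75), AT3G59480 (−1.63), AT3G16350 (−1.54), AT3G07310 (−1.37) and the phloem MYB-like gene AT3G12730 (−1.20).

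Against root p35S the response was larger for AT1G33050 (4.13), AT5G64870 (3.50), AT2G15880 (3.24), AT5G07330 (3.16) and AT4G30380 (2.68), and lower for AT1G73340 (−2.55), AT1G49200 (−2.31), AT3G45700 (−2.16), AT2G37950 (−1.91) and AT3G59480 (−1.78). Against shoot pSUC2 it was larger for AT1G33050 (3.92), AT4G30380 (3.61), AT5G39580 (3.53), GAT1_2.1 (3.43) and AT3G48450 (3.43), and lower for AT3G45700 (−3.16), M17 (−2.97), AT1G34510 (−2.85), AT3G50300 (−2.75) and AT1G73340 (−2.46). What lies behind these differences was not tested.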

How the results depend on the processing

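Of 141 results for single genes under 1833 alternative values, 1714 kept their side of the threshold, 104 were no longer called and 15 became called. Among results called in the main fit 0 reversed direction. For results not called there, the direction was not compared. The counts moved more. With the replicate block, which the labels do not show to be a pairing, 1389 probe sets were called for the response in place of 1319, 86 for the difference from the 7 lines in place of 53, 203 against root p35S in place of 69 and 867 against shoot pSUC2 in place of 480. The block also called ATHSP22.0, EXPA4, EXPA15 and COB (adjusted p = 0.0393, 0.00112, 0.00225 and 0.0138 by limma). Fitting root arrays only gave 36 against p35S, and fitting the 8 pSUC2 arrays only gave 726 against the shoot. Adding 50 gave 873 for the response, 104 against p35S and 590 for the level in air in place of 890. With no minimum difference 2440 were called for the response and 2726 for the level in air. At an adjusted p under 0.01, 34, 28 and 212 were called against the 7 lines, p35S and the shoot.

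Leaving out 1 array at a time gave 990 to 1281 for the response, 35 to 38 called list members in place of 43, 18 to 41 for the 7 lines, 19 to 115 for p35S, 247 to 378 for the shoot and 828 to 932 for the level in air. The phloem-enriched sets had 44 to 64 falls in place of 68 and 68 to 113 in place of 97, settings added after the data were seen. The cause of these shifts was not tested, beyond the smaller number of arrays where arrays were left out. Having 2 arrays per condition limits the precision of every value here.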
